A study of Mus musculus with 58 samples.

Results

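Injured mice that carried 1 working copy of Abca1 were compared between the 2 human apolipoprotein E isoforms. The comparison took every mouse labelled as injured and Abca1 heterozygous, 8 with APOE4 (E4/Abca1+/- TBI, 4 males and 4 females) and 6 with APOE3 (E3/Abca1+/- TBI, 3 males and 3 females), so 14 of the 58 mice of the series. All were 3 months old, on a C57BL/6 background, with the mouse Apoe gene replaced by the human isoform and crossed to Abca1+/- mice. Traumatic brain injury (TBI) was a controlled cortical impact through a 4.5 mm craniotomy, 1.0 mm deep at 3 m/s, over the left parietal cortex. Cortex and hippocampus at the injury site were frozen together 14 days later, and RNA reads were counted gene by gene in 1 library per mouse; how messenger RNA was selected is not given in the sources used here. The other 44 mice were sham-operated or carried both copies of Abca1, and they entered as 3 further E4 against E3 comparisons. They also entered tests of whether the isoform difference itself differed by injury or by Abca1 copies. The scaling of CPM, a single fit over 58 mice and the levels shown for other groups used them as well. Mice are numbered within each group, and each mouse is a separate animal.

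Apolipoprotein E (apoE) is the main lipid carrier of the brain and is made largely by astrocytes and by activated microglia. ABCA1 is the membrane transporter that loads cholesterol and phospholipid onto apoE, and loss of 1 copy leaves apoE poorly lipidated. The E4 isoform is the strongest common inherited risk for late-onset Alzheimer's disease and has been tied to a poorer course after head injury. Weeks after an impact, the cortex around the lesion holds activated microglia and astrocytes, which present antigen, clear debris and express interferon-responsive genes. Because each library is bulk tissue, fewer cells of a type and less RNA per cell cannot be told apart here. The alleles were replaced in the germ line, so every cell that expresses apoE or ABCA1 carried them.

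Neither targeted gene passed the test. Abca1 had 81.0, 130 and 214 CPM (counts per 1000000 counts, scaled by library composition; lowest, median and highest mouse) in the E4 mice and at 76.1, 104 and 136 in the E3 mice. The ranges overlapped, and the difference of 0.39 (log2, SE 0.18) did not pass the test (adjusted p = 0.268). The mouse Apoe gene model, where human transcripts are counted only if they align to the mouse genome, had 20.7, 26.3 and 28.9 CPM in E4 mice and 22.2, 24.6 and 26.8 in E3 mice (log2 difference 0.06, SE 0.07, adjusted p = 0.726). These reads cannot tell the human isoforms apart, so the isoform labels could not be checked from them.

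Some libraries stood apart before any comparison was made. Rn45s, the precursor of ribosomal RNA, was at 1700, 1290, 54800, 23600, 20900 and 22600 CPM in E3 mice 1 to 6. The 8 E4 mice were between 786 and 1550 CPM, so 4 of the 6 E3 libraries, from 3 of the 3 females and 1 of the 3 males, were rich in ribosomal RNA and none of the E4 libraries was. Other non-polyadenylated RNAs moved with it: Rn7sk, a small nuclear RNA that restrains transcription elongation, reached 94.0 CPM in the E3 mice and 4.41 in the E4 mice. Ttr, made by the choroid plexus, was at 1310, 1160, 1930 and 275 CPM in E4 mice 3, 5, 7 and 8 and at 1750 in E3 mouse 3, and at 1.08 to 11.4 in the other 9 mice. E4 mouse 8 had the lowest Prox1, a dentate gyrus marker, at 7.95 CPM against 22.7 to 41.5 in the others, and the highest summed markers of thalamus and striatum, at 1070 CPM against 232 to 332 in the E3 mice. Total counts ran from 5471936 to 37877346 in the E4 mice and from 12165681 to 21199410 in the E3 mice. The expression of Xist and Ddx3y fitted the labelled sex in each of the 58 mice. Counts are therefore given below also without the 4 ribosomal-RNA-rich mice and without the 5 Ttr-rich mice.

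**Figure D1:**
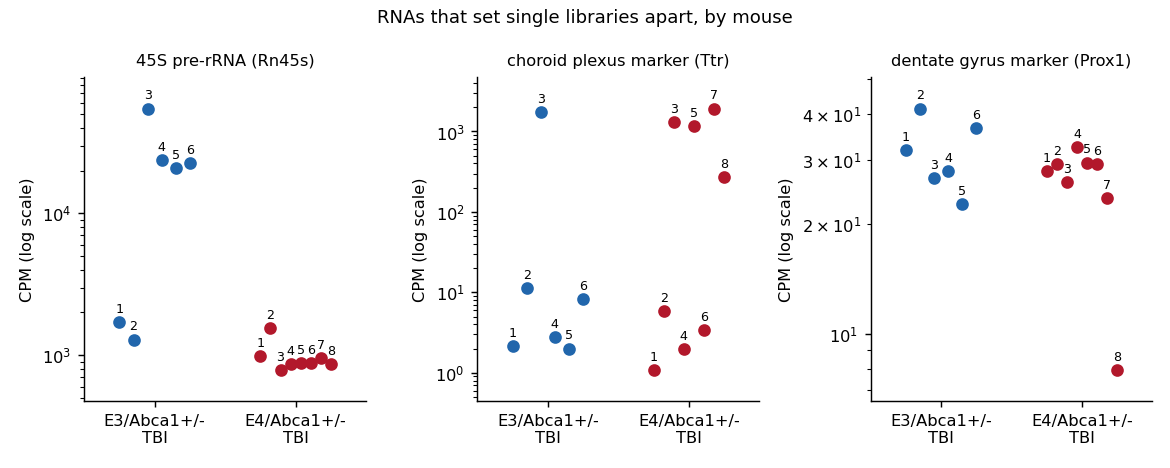
Level of Rn45s, Ttr and Prox1 in each of the 14 mice (points, numbered by mouse; CPM on a log axis; E3/Abca1+/- TBI left, E4/Abca1+/- TBI right). E3 mice 3 to 6 lie above 10000 CPM of Rn45s, E4 mice 3, 5, 7 and 8 and E3 mouse 3 lie above 100 CPM of Ttr, and E4 mouse 8 has the lowest Prox1.

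Of 15121 genes tested, 167 (1.10%) were higher and 267 (1.77%) lower in E4 than in E3 mice after injury on the Abca1+/- background (edgeR quasi-likelihood test, Benjamini-Hochberg adjusted p under 0.05), 434 genes or 2.87% in either direction. At an unadjusted p under 0.05 there were 1400 higher (9.26%) and 1426 lower (9.43%). Most differences were small. The higher genes had a median log2 difference of 0.48, from 0.13 to 5.02, with 25 at 1 or more, and the lower genes had a median of -0.30, with 15 at -1 or less and 224 closer to 0 than -0.5. The 2 groups did not overlap for 68 of the 167 higher and 93 of the 267 lower genes. Over all genes tested, the E4 mice lay wholly above the E3 mice for 103 genes (0.681%) and wholly below for 106 (0.701%).

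The number of calls depended on which mice were compared. Without the 4 mice rich in ribosomal RNA, 9 genes were called higher and 11 lower, 13 of these 20 among the 434, and all 167 higher and 267 lower genes kept their direction, with medians of 0.51 and -0.31. The 434 genes were picked in a comparison that already held the remaining mice, so the kept direction is no independent check. With the Rn45s level as a covariate 5 were called higher and 7 lower, and without the 5 Ttr-rich mice 12 and 10, each of these 22 among the 434. Leaving out any 1 of E3 mice 1 to 5 or E4 mice 3, 5 and 7 lowered the calls to between 57 and 101 higher and between 97 and 169 lower, and without E4 mouse 6 there were 279 higher. Males alone gave 30 called genes of 15122 (0.198%). The comparison without the ribosomal-RNA-rich mice holds only 2 E3 mice, both male, against 4 male and 4 female E4 mice. Leaving out E3 mouse 1 or 2, rich in neither ribosomal RNA nor Ttr, also lowered the calls, to 76 and 61 higher. Fewer mice and the kind of library left out therefore cannot be told apart, and the part of ribosomal RNA in the calls was not tested further.

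**Figure D2:**
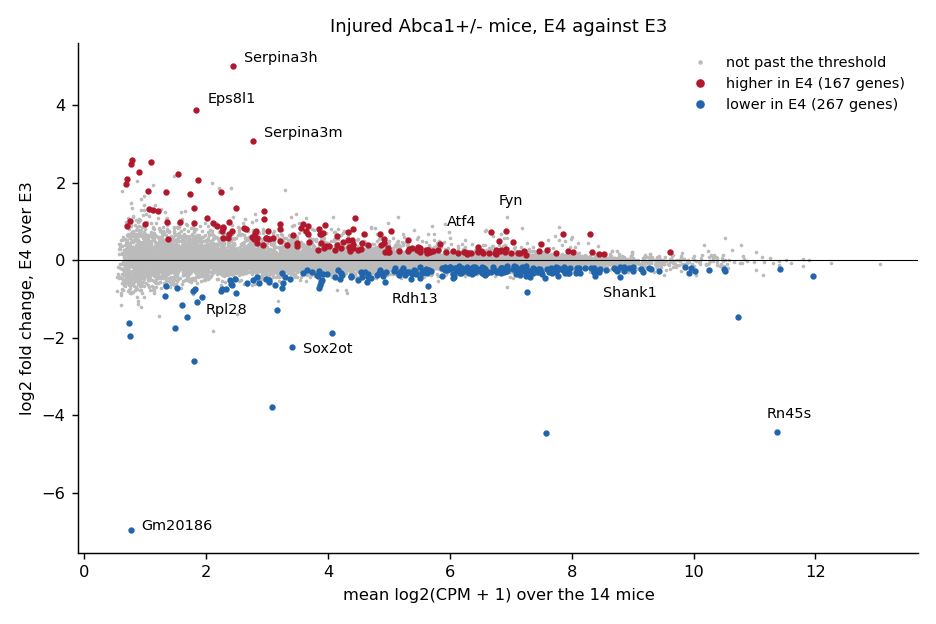
Log2 fold change of E4 over E3 against mean level, log2(CPM + 1), for the 15121 genes tested in the 14 injured Abca1+/- mice. Grey points did not pass the threshold, and the 167 higher and 267 lower genes are coloured; Serpina3h, Eps8l1 and Serpina3m lie at the top, and Gm20186, with no more than 0.076 CPM in any E4 mouse, and Rn45s at the bottom.

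A small set of genes also differed in the other 3 comparisons, which share no mice with the injured Abca1+/- groups. There, sham-operated Abca1+/- mice (7 against 7) gave 787 called genes of 14920 (5.27%), injured Abca1+/+ mice (7 against 8) 29 of 14014 (0.207%) and sham-operated Abca1+/+ mice (7 against 8) 49 of 14172 (0.346%). Unadjusted, 23.4%, 7.21% and 8.89% of genes passed in these 3 comparisons. 11 genes passed the threshold in the same direction in all 4, and 10 of them are described here.

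Fyn, a Src-family tyrosine kinase that acts at synapses and in myelination (chr10:39369743-39565381, mm10), was at 135, 154 and 167 CPM in E4 mice and 82.7, 88.7 and 96.6 in E3 mice. No E4 mouse overlapped the E3 range, and the difference was 0.77 (log2, SE 0.05, adjusted p = 2.45e-07). It was 0.68, 0.59 and 0.66 in the Abca1+/- sham, Abca1+/+ TBI and Abca1+/+ sham comparisons. Eps8l1, a relative of the epidermal growth factor receptor substrate Eps8 (chr7:4460638-4480487), was at 3.49, 6.78 and 8.56 CPM against 0.168, 0.444 and 0.657, again with no overlap (log2 difference 3.88, SE 0.28, adjusted p = 7.67e-07). The other 3 comparisons gave 4.01, 3.43 and 3.74. D630041G03Rik, inside the span of Eps8l1, was higher by 1.76 (adjusted p = 0.00019), and reads of such overlapping genes cannot be assigned with certainty.

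The gene of the mitochondrial retinol dehydrogenase Rdh13 (chr7:4425665-4471280) overlaps Eps8l1, so reads of the shared stretch cannot be assigned with certainty. Rdh13 itself moved the other way. Its levels were 23.7, 25.1 and 28 CPM in E4 and 34.5, 35.6 and 42.5 CPM in E3 mice, without overlap (log2 difference -0.55, SE 0.06, adjusted p = 8.1e-05), and it differed by -0.51, -0.59 and -0.47 elsewhere. Gm20186, a predicted gene, had 2 counts in all 8 E4 libraries together, with 6 of the 8 at 0, and 267 counts in the 6 E3 libraries. Per count sequenced it was 182-fold lower in E4, with a 95% exact interval from 49.9 to 1510 that covers counting error only (adjusted p = 5.66e-08). The remaining genes that passed in all 4 comparisons and are named by the rule were D430020J02Rik (1.76 in injured Abca1+/- mice), AK010878 (1.08), Kirrel2 (0.94), Serpina3m (3.09) and Atf4 (0.42). Each of the 10 except Kirrel2 stayed past the threshold when any 1 of the 14 mice was left out. Without the 4 ribosomal-RNA-rich mice, and with the Rn45s level as a covariate, Fyn, Eps8l1, Rdh13 and Gm20186 stayed past it and the other 6 did not. Without the 5 Ttr-rich mice Atf4 and Kirrel2 did not.

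Sox2ot, a long non-coding RNA that overlaps the stem cell factor gene Sox2 (chr3:34560381-34677993), had 3.37, 4.54 and 7.06 CPM in E4 and 17.5, 23 and 27.8 CPM in E3 mice. The groups were far apart, with a log2 difference of -2.24 (SE 0.14, adjusted p = 1.02e-07), while the E4/Abca1+/+ mice spread more widely, from 4.14 to 15.6 CPM after TBI and from 4.88 to 27.8 after sham surgery. The other 3 comparisons gave -1.82, -1.29 and -1.0.

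**Figure D3:**
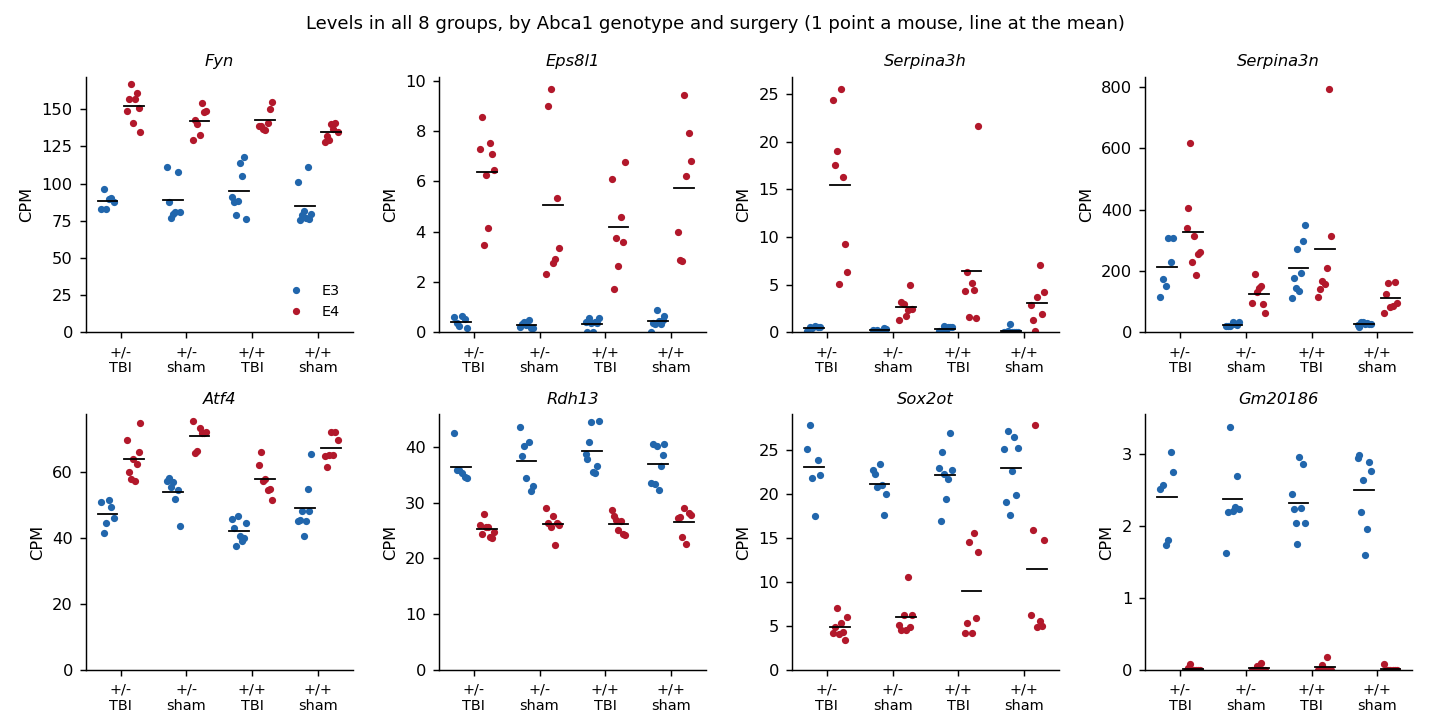
CPM in each of the 58 mice for 8 genes, by Abca1 genotype and surgery (E3 left and E4 right in each pair, black line at the mean). Fyn, Eps8l1, Serpina3h and Atf4 are higher and Rdh13, Sox2ot and Gm20186 lower in E4, while Serpina3n is separate in both sham pairs and overlaps in both injured pairs.

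Members of the Serpina3 cluster on chromosome 12 had some of the largest positive differences. They encode secreted serine protease inhibitors of the antichymotrypsin family, acute-phase products of which Serpina3n is the form most used as a mark of reactive astrocytes. Serpina3h (chr12:104247896-104254405) was at 5.03, 16.9 and 25.5 CPM in E4 mice and 0.1, 0.547 and 0.657 in E3 mice. The groups were fully separate (log2 difference 5.02, SE 0.45, adjusted p = 1.55e-05). Serpina3m was at 5.32, 13.4 and 32.2 CPM against 1.05, 1.42 and 2.97 (log2 difference 3.09, SE 0.38, adjusted p = 0.000497). Serpina3f (2.55), Serpina3i (2.24) and Serpina3c (2.60, chosen after its values were seen) were also called higher. Without the ribosomal-RNA-rich mice Serpina3h stayed called and the other 4 did not, and without the Ttr-rich mice Serpina3h and Serpina3m did. These paralogs are near copies, so reads shared between them may have been split or dropped by the counting, and the levels of single members are uncertain.

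Serpina3n, the most abundant member, behaved differently. In injured Abca1+/- mice it was at 188, 287 and 619 CPM with E4 and 114, 202 and 308 with E3, and 4 of the 8 E4 mice lay inside the E3 range (log2 difference 0.59, SE 0.26, adjusted p = 0.233). In the sham-operated Abca1+/- mice the difference was 2.31 and the groups were separate, at 62.4 to 190 CPM against 19.4 to 32.7. The isoform by injury interaction for Serpina3n was -1.70 (SE 0.35, adjusted p = 0.265), which did not pass.

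Several of these genes are neighbours. In windows of 5000000 bases, chosen after their counts were seen, chr12:100000001-105000000 held 10 called genes of 46 tested (21.7%), among them AK010878, Ifi27 and the 5 Serpina3 genes. The window chr7:1-5000000 held 8 of 46 (17.4%), among them Oscar, Rps9, Rdh13, Eps8l1, Ptprh and Rpl28. Another window, chr7:40000001-45000000, held 8 of 55 (14.5%), among them Shank1 and Atf5. By whole chromosome, 5.26% of the genes on chromosome 12 and 4.53% of those on chromosome 7 were called, against 2.87% overall. Of the 434 called genes, 428 could be placed. Among the genes around Apoe itself on chromosome 7, 1 of 27 tested was called, the microtubule kinase gene Mark4, at -0.29 (SE 0.07, adjusted p = 0.0383), and their median was -0.06. That list was written by hand. The whole window that holds Mark4, chr7:15000001-20000000, had 5 called genes of 76 tested (6.6%): Npas1, Dact3, Nova2, Irf2bp1 and Mark4. Mark4 was not called without any 1 of E3 mice 1 to 6 or E4 mice 1, 3 and 5.

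Genes of the Y chromosome differed between the isoforms in males. These genes were chosen after their values were seen. Ddx3y, an RNA helicase, was at 131 to 147 CPM in the 4 E4 males and 54.5 to 66.8 CPM in the 3 E3 males, with no overlap (log2 difference in males 1.18, SE 0.08, edgeR adjusted p = 0.000329). Uty (1.07), Kdm5d (1.02) and Eif2s3y (1.17) differed to a like extent. The same held beyond the injured Abca1+/- mice, since Ddx3y was at 122 to 165 CPM in all 15 E4 males of the series and at 54.5 to 86.4 CPM in all 15 E3 males. The E4 and E3 males of the series thus did not overlap in Ddx3y, whatever the injury and Abca1 genotype, and the isoform cannot be told apart from other differences between the lines.

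Immune gene lists came next. None of their members was called without the 4 ribosomal-RNA-rich mice, with the Rn45s level as a covariate or without the 5 Ttr-rich mice, so the values under the first and the last of these settings stand beside each list. In both of these the median over all genes was 0.00. The share of all genes at an unadjusted p under 0.05 is not given for them, so such counts have no background beside them. MHC class I molecules carry peptides from inside the cell to its surface, after the immunoproteasome cuts them and the TAP transporter moves them into the endoplasmic reticulum. Of 16 class I presentation genes, all 16 had positive differences (higher in E4), 14 reached p under 0.05 before adjustment and 8 after it, and the median log2 difference was 0.64 beside 0.00 over all genes tested. The list's mean level, log2(CPM + 1), was 4.08 to 4.91 in E4 mice and 3.86 to 4.29 in E3 mice, and 7 of the 8 E4 mice lay above all 6 E3 mice.

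H2-K1, a class I heavy chain (chr17:33996012-34000619), was at 79.6, 128 and 187 CPM in E4 and 62.2, 76.9 and 98.7 CPM in E3 mice. E4 mice 2 and 4 lay inside the E3 range, and the difference was 0.74 (log2, SE 0.16, adjusted p = 0.0256). B2m, the light chain shared by all class I molecules, was at 175, 283 and 417 CPM against 154, 185 and 193, with only E4 mouse 4 inside the E3 range (log2 difference 0.69, SE 0.15, adjusted p = 0.0261). The non-classical molecules H2-M3 (0.76) and H2-Q4 (0.80), the transporter subunit Tap1 (0.66), the immunoproteasome subunits Psmb8 (0.69) and Psmb9 (0.87) and Nlrc5 (0.98), the activator of class I transcription, passed as well. H2-K1 and H2-Q4 belong to a family of near copies, so their single levels are uncertain. Without E3 mouse 3 no member of the list was called, without E4 mouse 2 there were 8 calls, without E4 mouse 4 there were 11 and without any other single mouse 1 to 5, while the median stayed between 0.54 and 0.73. Without the 4 ribosomal-RNA-rich mice no member was called, 15 reached an unadjusted p under 0.05 and the median was 0.83. Without the 5 Ttr-rich mice none was called either, 9 reached it and the median was 0.53. The E3 mice left without the ribosomal-RNA-rich ones, 1 and 2, had the lowest mean levels of the list in their group. They were at 3.86 and 3.92, and the other E3 mice at 4.16 to 4.29.

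Of 25 interferon-stimulated genes, 24 were positive, 21 reached an unadjusted p under 0.05 and 4 were called, with a median of 0.63. Gbp3, a guanylate-binding protein that attacks intracellular pathogens, was at 11.4, 18.8 and 22.1 CPM in E4 and 10.2, 10.6 and 11.3 CPM in E3 mice. E4 mouse 4 was the lowest, just above the highest E3 mouse (log2 difference 0.72, SE 0.13, adjusted p = 0.00816). Its relative Gbp2 (0.81), Ifi35 (0.80) and Ifi27 (0.31) also passed, and Aim2, a sensor of cytosolic DNA, was among the genes with the smallest p (0.82, SE 0.12, adjusted p = 0.00243). The list had 1 call without E3 mouse 2, 14 without E4 mouse 4 and 2 to 4 without any other mouse. Without the ribosomal-RNA-rich mice none was called, 17 reached an unadjusted p under 0.05 and the median was 0.90, and without the Ttr-rich mice none was called, 5 reached it and the median was 0.34.

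Interferon-responsive promoters often hold 2 copies of GAAA with any 2 bases between them, an element to which the STAT and IRF factors bind. It was looked for on both strands in the 250 bases before the start of 12 class I and interferon-stimulated genes called higher. Of these, 10 had an entry among the RefSeq promoters (GRCm38.p6) and 3 held it, B2m, Gbp2 and Gbp3, against 2.98% of all 32851 promoters. Members of the lists that were not called were not counted apart, so these shares show nothing particular to the called genes. The windows are shown because these 3 genes are among those called; the capitals mark the match, which is a description of letters and not of binding. In Gbp3 the capitals hold 2 overlapping matches.
B2m, chr2:122147503-122147602, plus strand, match 139 bases before the start: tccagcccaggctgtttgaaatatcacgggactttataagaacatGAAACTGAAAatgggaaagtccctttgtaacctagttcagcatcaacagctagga
Gbp2, chr3:142620559-142620658, plus strand, match 59 bases before the start, on the reverse strand: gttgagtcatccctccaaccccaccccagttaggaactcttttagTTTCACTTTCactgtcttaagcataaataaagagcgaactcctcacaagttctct
Gbp3, chr3:142559954-142560043, plus strand, matches 45 and 39 bases before the start, on the reverse strand: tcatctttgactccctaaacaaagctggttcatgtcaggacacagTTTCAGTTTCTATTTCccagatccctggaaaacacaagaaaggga

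Microglial and phagocyte lists held fewer calls. Fc gamma receptors bind antibody-coated material and Toll-like receptors bind microbial and damage products. Of 16 such genes all were positive, 14 reached an unadjusted p under 0.05 and 3 were called: the inhibitory receptor Fcgr2b (0.72, adjusted p = 0.0221), the shared signalling chain Fcer1g (0.69, adjusted p = 0.0489) and Tlr1 (1.08, adjusted p = 0.0423). None of the 3 was called without E3 mouse 1, 2 or 3, and the list's median went from 0.56 to 0.82 without the ribosomal-RNA-rich mice and to 0.33, with 3 genes at an unadjusted p under 0.05, without the Ttr-rich mice. Of 24 lysosome and phagocyte genes all were positive, 22 reached an unadjusted p under 0.05 and 1 was called. That gene, Ctss, the cathepsin that trims the class II invariant chain, was at 235, 396 and 510 CPM in E4 and 206, 247 and 277 CPM in E3 mice, with only E4 mouse 4 inside the E3 range (log2 difference 0.67, SE 0.14, adjusted p = 0.0214). No gene of the list was called without E3 mouse 1, 2 or 3, and 13 were without E4 mouse 6. The median of 0.54 became 0.76 without the ribosomal-RNA-rich mice and 0.25 without the Ttr-rich mice, where 1 gene in place of 22 reached an unadjusted p under 0.05.

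Microglia around damage lower part of their resting program and raise genes of lipid handling and phagocytosis, known as the disease-associated set. All 24 genes of that set were positive, 16 with an unadjusted p under 0.05, and the median was 0.54. The 3 that passed were the tetraspanin Cd9 (0.50), the cathepsin Ctsl (0.42) and the fatty acid carrier Fabp5 (0.32). No gene of the set was called when E3 mouse 1, 2, 3, 4 or 5 or E4 mouse 1, 3, 5 or 7 was left out, and 8 were without E4 mouse 6. Without the ribosomal-RNA-rich mice 18 genes reached an unadjusted p under 0.05 and the median was 0.83, and without the Ttr-rich mice 22 genes were positive, 2 reached it and the median was 0.22. Clec7a and Cst7 of this set, named after their values were seen, differed by 0.84 and 0.64 without passing. Trem2, the lipid receptor, and its adaptor Tyrobp were counted in the homeostatic list below. Also named after their values were seen, they differed by 0.52 (edgeR adjusted p = 0.141) and 0.47 (edgeR adjusted p = 0.158).

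No homeostatic microglial gene was called lower. Of 18, with Trem2 and Tyrobp counted among them, 17 were positive, 12 reached an unadjusted p under 0.05 and 2 were called, with a median of 0.32. Cx3cr1, the fractalkine receptor, was at 117, 155 and 183 CPM against 91.8, 105 and 131, with E4 mice 4 and 6 inside the E3 range (log2 difference 0.46, SE 0.10, adjusted p = 0.0243). Aif1, the gene of the microglial stain IBA1, passed at 0.68 (SE 0.13, adjusted p = 0.011). P2ry12 and Tmem119, found in resting microglia and chosen after their values were seen, differed by 0.21 and 0.22 and did not pass. Without the ribosomal-RNA-rich mice the list's median was 0.46, with 10 genes at an unadjusted p under 0.05, and without the Ttr-rich mice it was 0.16, with 3 genes higher and 1 lower at that level. The 8 markers used for microglia as a cell type were all positive with 2 called, their summed level was 902 to 1430 CPM in E4 and 737 to 1030 CPM in E3 mice, and their median of 0.39 was below the 0.64 of the class I list and became 0.22 without the Ttr-rich mice; whether the number of microglia differed was not tested.

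**Figure D4:**
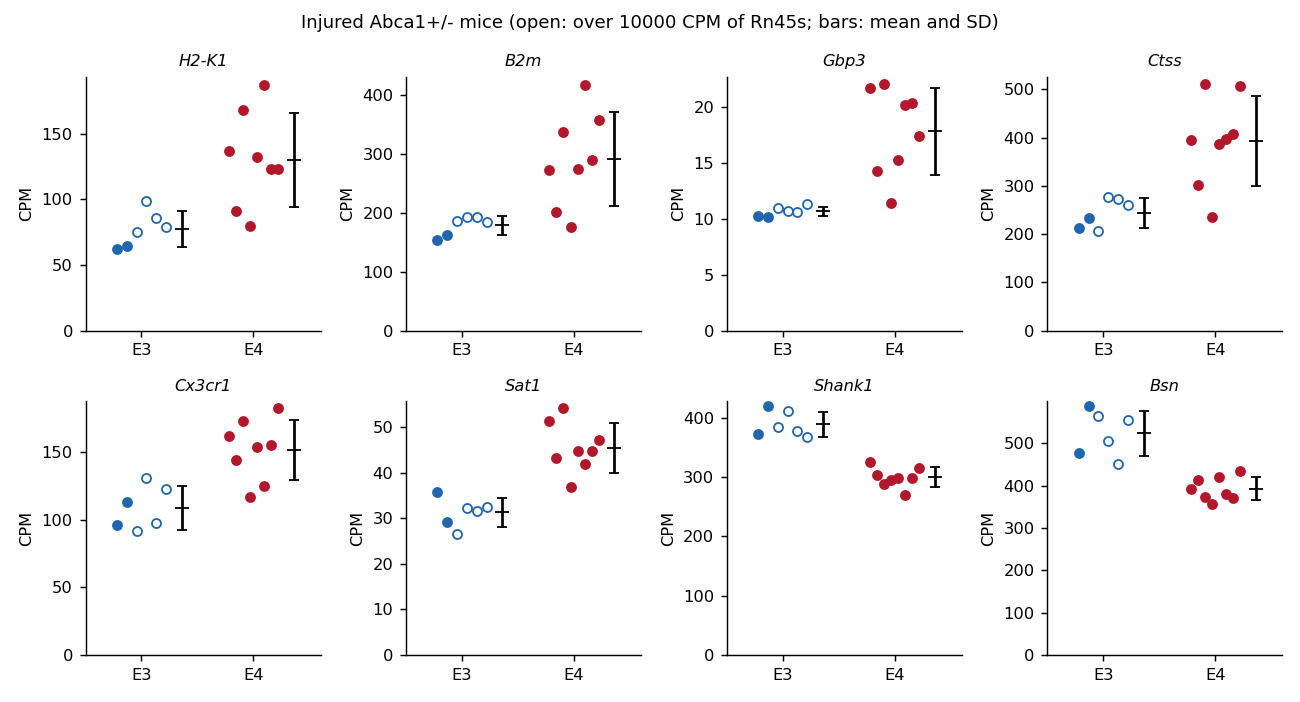
CPM by mouse for 8 genes in the injured Abca1+/- mice (E3 left, E4 right; open points are the 4 E3 mice above 10000 CPM of Rn45s; bars give mean and SD). H2-K1, B2m, Gbp3, Ctss and Cx3cr1 are higher in E4 with 1 or 2 low E4 mice in or near the E3 range, Sat1 is higher with no overlap, and Shank1 and Bsn are lower with no overlap.

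Class II presentation, complement and reactive astrocyte genes were on the same side without reaching the same number of calls. All 8 class II genes were positive, 4 with an unadjusted p under 0.05 and none called, with a median of 0.72. H2-Aa, a class II chain of antigen-presenting cells, was at 8.47, 20.0 and 77.6 CPM in E4 and 6.32, 12.3 and 18.5 CPM in E3 mice (log2 difference 1.11, SE 0.44, adjusted p = 0.183). E4 mouse 6 was far above the rest for H2-Aa, H2-Ab1 and H2-Eb1, and the list's median was 0.38 without that mouse, 1.34 in males and -0.05 in females. It was 1.30 without the ribosomal-RNA-rich and 1.07 without the Ttr-rich mice. Of 16 complement genes 15 were positive and 9 had an unadjusted p under 0.05, none called, led by C1qa (0.49, adjusted p = 0.0654) and the complement receptor chains Itgam (0.58) and Itgb2 (0.68). Of 21 reactive astrocyte genes all were positive and only Gbp2 passed, with a median of 0.59, and Gbp2 was lost without any 1 of E3 mice 1 to 6 or E4 mice 1, 3, 5 and 7; the intermediate filament Gfap, chosen after its values were seen, differed by 0.39 (adjusted p = 0.242). Without the Ttr-rich mice the complement median went from 0.46 to 0.29 and the reactive astrocyte median to 0.27, and without the ribosomal-RNA-rich mice they were 0.78 and 0.88. In males the complement and reactive astrocyte medians were 0.70 and 0.90, with 12 and 16 genes higher at an unadjusted p under 0.05. In females they were 0.26 and 0.24, with 2 and 0 such genes. All 3 E3 females were rich in ribosomal RNA.

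Markers of infiltrating cells were few in the table. Of 12 T cell markers 5 were listed, all 5 were positive and 4 had an unadjusted p under 0.05. Their summed level was 4.58 to 18.5 CPM in E4 and 3.61 to 5.83 CPM in E3 mice. The highest was E4 mouse 8, and the other E4 mice were at 4.58 to 9.67 CPM. In uninjured Abca1+/- sham mice the summed level was 5.18 to 6.5 CPM with E4 and 4.06 to 6.81 CPM with E3. Of 12 markers of infiltrating and border macrophages 9 were listed, 6 positive and none called, with a median of 0.08. Only 2 of 8 neutrophil, 3 of 7 B and plasma cell and 3 of 5 blood markers were listed. The B and plasma cell markers summed to 356 CPM in E4 mouse 6, 16.3 to 40.3 in the other E4 mice and 16.2 to 67.6 in the E3 mice. Their median of 0.88 became -0.65 without E4 mouse 6. The part of infiltrating cells in the immune differences was not tested.

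The same immune lists had medians nearer 0 in the other comparisons. For class I presentation the median was 0.04 in Abca1+/- sham, -0.08 in Abca1+/+ TBI and 0.00 in Abca1+/+ sham mice. For interferon-stimulated genes it was 0.24, 0.07 and 0.10, for disease-associated microglia 0.19, -0.10 and -0.01, and for lysosome genes 0.10, -0.07 and -0.04. Fc gamma and Toll-like receptors had 0.28, -0.04 and -0.09, and reactive astrocyte genes 0.26, -0.11 and 0.07. In Abca1+/- sham mice, where 5.27% of all genes were called, 2 lysosome, 2 Fc gamma and Toll-like and 1 reactive astrocyte gene were called. The test of the difference between comparisons shares the injured Abca1+/- mice. The isoform by injury interaction called none of 15162 genes (0%, 6.34% unadjusted), and the isoform by Abca1 interaction called 1 of 15138 (0.00661%, 10.1% unadjusted), so no immune gene passed either. The class I median was 0.52 for the first interaction, with 9 of 16 genes at an unadjusted p under 0.05, and 0.64 for the second, with 11 of 16, beside medians of 0.02 and 0.01 over all genes.

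**Figure D5:**
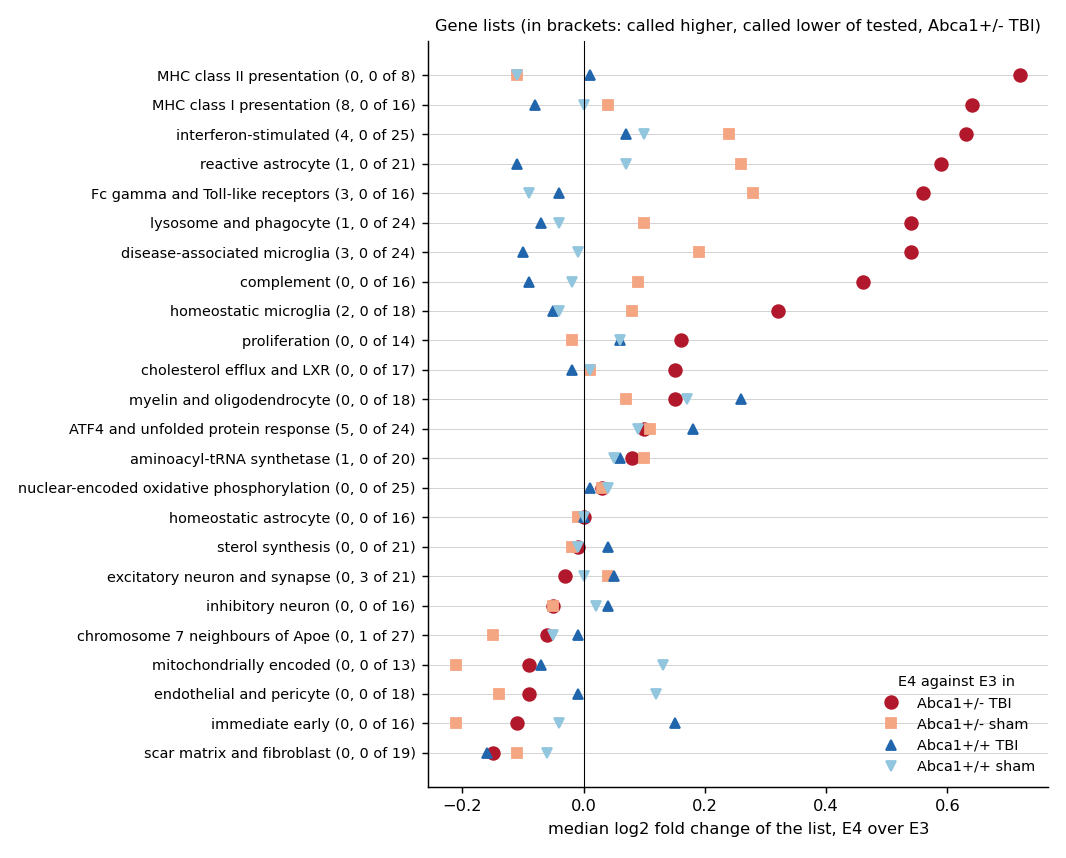
Median log2 fold change of E4 over E3 for 24 gene lists in the 4 comparisons; symbols mark the comparison, and the brackets give genes called higher and lower of those tested in injured Abca1+/- mice. Class II, class I and interferon lists lie furthest right in injured Abca1+/- mice, with medians of 0.72 (0.38 without E4 mouse 6), 0.64 and 0.63, while the neuronal and endothelial lists lie near 0.

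For the isoform by Abca1 interaction, genes with the smallest p on the lower side included Zbtb7a (-0.44) and Pcdha2 (-1.16), both with adjusted p = 0.13, and those on the higher side were Birc3 (1.21), Gm8680 (0.45) and H2-M3 (1.01), each with adjusted p = 0.209. For the isoform by injury interaction genes with the smallest p, beside Serpina3n, included Stra13 (0.60, adjusted p = 0.21), Spsb2 (1.11), Gm10125 (-1.30) and Macrod2 (-0.27), and none passed.

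The stress factor gene Atf4 was called in all 4 comparisons, and its targets in some. ATF4 is translated when the integrated stress response is active and raises genes for amino acid uptake and synthesis and for tRNA charging. Of 24 genes of the ATF4 and unfolded protein response list, 20 were positive and 5 were called, with a median of 0.10. The other 3 comparisons called 4, 1 and 2 genes of the list. Here it had 2 calls without E3 mouse 2 and none without the ribosomal-RNA-rich mice, with Rn45s as a covariate or without the Ttr-rich mice, where Atf4 stood at 0.44, 0.44 and 0.41. Atf4 (chr15:80255184-80257545) was at 57.4, 63.2 and 74.8 CPM in E4 and 41.4, 47.7 and 51.5 CPM in E3 mice. The groups did not overlap (log2 difference 0.42, SE 0.07, adjusted p = 0.00449), and the other 3 comparisons gave 0.40, 0.45 and 0.44.

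The other 4 called were targets or partners. Asns, asparagine synthetase, was at 101, 116 and 133 CPM against 87.3, 98.3 and 99.5, without overlap (log2 difference 0.26, SE 0.06, adjusted p = 0.0336), but it was not called without any 1 of E3 mice 1 to 6 or E4 mouse 7. Chac1, which degrades glutathione, was higher by 0.57 (SE 0.11, adjusted p = 0.0129), Mthfd2, of mitochondrial folate metabolism, by 0.51, and Atf5 by 0.30. Mthfd2 was lost without E3 mouse 2, and Atf5 without any 1 of E3 mice 1 to 5 or E4 mice 1, 2, 3, 5 and 7. In the Abca1+/- sham, Abca1+/+ TBI and Abca1+/+ sham comparisons, Asns differed by 0.37, 0.23 and 0.25, Chac1 by 0.58, 0.61 and 0.50, Mthfd2 by 0.63, 0.43 and 0.50 and Atf5 by 0.19, 0.29 and 0.23. Of these, Asns passed in both sham comparisons and Chac1 and Mthfd2 in Abca1+/- sham mice. Of 20 aminoacyl-tRNA synthetase genes 17 were positive, 7 of them with an unadjusted p under 0.05 beside 1 on the lower side, and Cars, which charges the cysteine tRNA, was called at 0.29 (SE 0.06, adjusted p = 0.014), though not without the ribosomal-RNA-rich or the Ttr-rich mice. Outside these lists, Sat1, which starts the breakdown of polyamines, was at 36.8, 44.7 and 54.3 CPM in E4 and 26.5, 32.0 and 35.9 CPM in E3 mice. Its groups did not overlap (log2 difference 0.52, SE 0.08, adjusted p = 0.0037), and Sat1 was not called without the ribosomal-RNA-rich or the Ttr-rich mice.

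The binding element of ATF4 with its C/EBP partners is often written TGATGNAA. Searched as above, it was in 3.45% of the 32851 promoters and in 2 of the 5 promoters on file for the 6 called genes of these lists. Members that were not called were again not counted apart. The windows of Asns and Chac1 are shown as the members that hold it, with the match in capitals.
Asns, chr6:7693210-7693277, minus strand, match 23 bases before the start: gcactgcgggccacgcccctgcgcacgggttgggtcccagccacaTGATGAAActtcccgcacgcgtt
Chac1, chr2:119351004-119351101, plus strand, match 193 bases before the start, on the reverse strand: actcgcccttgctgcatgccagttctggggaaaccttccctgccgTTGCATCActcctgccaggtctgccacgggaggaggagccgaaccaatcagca

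The lower genes were more numerous and changed less. Shank1, a scaffold of the postsynaptic density (chr7:44308916-44360094), was at 270, 298 and 325 CPM in E4 and 368, 381 and 420 CPM in E3 mice. The groups were separate (log2 difference -0.39, SE 0.05, adjusted p = 0.000335), while the other 3 comparisons gave -0.28, 0.07 and -0.04. Bsn, the presynaptic scaffold bassoon, was at 356, 386 and 435 CPM against 451, 529 and 587, also without overlap (log2 difference -0.43, SE 0.06, adjusted p = 0.0029). Grin1, the obligate subunit of NMDA receptors, was lower by 0.23 (SE 0.06, adjusted p = 0.0496), and its call was kept only when E4 mouse 6 was left out. Without the ribosomal-RNA-rich mice and without the Ttr-rich mice, Shank1 was the 1 call of the 3 that remained.

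These 3 were the only calls among 21 excitatory neuron and synapse genes, of which 7 were positive and 6 were lower at an unadjusted p under 0.05, with a median of -0.03. The summed level of 8 neuron markers was 5390 to 7190 CPM in E4 and 5590 to 6470 CPM in E3 mice, so the ranges overlapped. Of 16 inhibitory neuron genes none was called and the median was -0.05. Other genes with the smallest p included Rpl28, of the large ribosomal subunit (-1.48), Mccc1, of leucine breakdown (-0.49), Ulk1, the kinase that starts autophagy (-0.28), and Cdr1 (-1.28). Rpl28 has pseudogene copies and its level was low, with medians of 1.42 CPM in E4 and 3.63 CPM in E3 mice. The counts under the symbol Cdr1 may include the circular RNA of the other strand, since strand use in the counting is not given in the sources used here.

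Rn45s, Rn18s and Rn7sk were among the genes with the largest negative differences, at -4.44, -4.46 and -3.78. They describe the 4 E3 libraries set apart above, and with the Rn45s level as a covariate Rn18s and Rn7sk stood at 0.02 and 0.15. Both RNAs were high in the same libraries as Rn45s, so these small values follow from the covariate itself. AA465934, at -2.60, was at 0.836 to 1.52 CPM in E4 and 2.06 to 14.8 CPM in E3 mice.

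The lower genes also had a common base composition. Their longest transcripts in the GENCODE annotation had a median GC content of 56.2% and a median length of 4658 bases. The medians were 49.8% and 3413 bases over all genes tested and 48.0% and 2811 bases in the higher genes. With all genes in 5 equal bins by GC content, the median log2 difference went from 0.05 in the lowest to -0.07 in the highest bin. It went from 0.08 to -0.12 in Abca1+/- sham mice, from -0.01 to 0.01 in Abca1+/+ TBI and from 0.03 to -0.03 in Abca1+/+ sham mice. The 25 lower genes that were also lower at an unadjusted p under 0.05 in all of the other comparisons had a median GC content of 50.7%. The part of GC content in the lower calls was not tested.

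How far the 434 genes recurred in the other comparisons differed by direction. Of the 167 higher genes, 146 of the 157 tested in Abca1+/- sham mice were also higher there, 101 of 151 in Abca1+/+ TBI and 123 of 144 in Abca1+/+ sham mice, with medians of 0.21, 0.05 and 0.13. Of the 267 lower genes, 265 of 267, 141 of 264 and 213 of 266 were also lower, with medians of -0.20, -0.01 and -0.07. An unadjusted p under 0.05 in the same direction was found in all 3 for 29 higher and 25 lower genes, and in none of the 3 for 64 and 91. The shared rate in Abca1+/- sham mice stands beside its higher unadjusted background of 23.4%, and 2 of the 7 E3 sham mice there were also rich in Rn45s.

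The other lists held no called gene. Cholesterol efflux and LXR genes, which act with ABCA1, had a median of 0.15 over 17 genes, led by the lysosomal cholesterol carrier Npc2 (0.40, adjusted p = 0.063) and the apolipoprotein clusterin, Clu (0.26, adjusted p = 0.137). Sterol synthesis genes had a median of -0.01 over 21 and homeostatic astrocyte genes one of 0.00 over 16. Myelin and oligodendrocyte genes had a median of 0.15 over 18, with Cnp at 0.18 and Mag at 0.19, neither past the threshold. Medians were -0.09 for 18 endothelial and pericyte genes, -0.15 for 19 scar matrix genes, -0.11 for 16 immediate early genes, 0.16 for 14 proliferation genes, -0.09 for 13 mitochondrially encoded and 0.03 for 25 nuclear-encoded oxidative phosphorylation genes. Among regional markers, no gene of hippocampus, thalamus and striatum or choroid plexus was called, and their medians depended on single mice. Hippocampus had -0.19 over 15 genes and -0.01 without E3 mouse 2, with -0.10 without E3 mouse 6 or E4 mouse 8. Thalamus and striatum had 0.45 over 14 and -0.02 without E4 mouse 8, and choroid plexus had 0.42 over 11 and between 0.20 and 1.18 by the mouse left out, the highest without E3 mouse 3. Of 14 cortical layer markers 1 was called, the deep-layer factor Bcl11b, on the lower side, and it was not called without E3 mouse 2.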

How the data were processed

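Bulk RNA-seq of 58 mice was deposited as 1 table of raw counts per gene. According to the study's methods and the labels, the authors aligned HiSeq 2500 reads to mm10 with Subread 1.5.0, counted them with featureCounts and deposited the counts without normalisation. The table listed 15171 genes. Blank lines (2) were removed and 23 symbols turned into dates were renamed from their identifiers, and 14999 genes (98.9%) matched RefSeq GRCm38.p6, from which coordinates and promoters were taken.

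Groups came from the labels. Genes were filtered with filterByExpr, scaled by TMM and tested with edgeR 4.0.16 (R 4.3.3) by the quasi-likelihood test on the 14 mice, at a Benjamini-Hochberg adjusted p under 0.05. The other 3 isoform comparisons and both interactions were fitted on their own mice. CPM are TMM-scaled, list scores are mean log2(CPM + 1), and the fit was tested on simulated data. Intervals cover counting error only. Alternatives used DESeq2 1.42.0, other filters and scalings, a sex covariate, single sexes, thinned counts and left-out mice.

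Genes and lists were chosen with earlier results of these data known. Named were Abca1 and Apoe, the 12 smallest p and 5 largest changes (mean CPM of at least 1) in each direction, the called members of each list or else its 3 smallest p, the 3 smallest p in each direction of each interaction, and up to 10 genes called in all 4 comparisons. Others are marked as chosen after their values were seen, as are library and window checks. Some genes are not reported here.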

Additional observations from a re-analysis of the deposited data

Results flagged for a closer look

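Among the named genes, 234 sets of 6 or 8 mice were examined. In 21 of them 1 mouse lay far from the others by Dixon's test, where chance gives about 1 in 20. E4 mouse 6 was the highest for H2-Aa (77.6 CPM), H2-Ab1 (41.1 CPM), H2-Eb1 (50.6 CPM) and Psmb9 (9.0 CPM). E4 mouse 2 was the highest of its group for Rn18s (106 CPM), Rn45s (1550 CPM) and Gm10125 (1.18 CPM), and E4 mouse 3 for Gm20186 (0.076 CPM) and Serpina3f (5.77 CPM). E4 mouse 8 was lowest for Prox1 (7.95 CPM) and E4 mouse 4 was lowest for Cnp (265 CPM). Among E3 mice, mouse 2 was highest for Cnp (316 CPM), Grin1 (272 CPM) and Mag (176 CPM) and lowest for Asns (87.3 CPM), mouse 1 was highest for Rdh13 (42.5 CPM) and lowest for Serpina3h (0.1 CPM), mouse 3 was highest for Ttr (1750 CPM), mouse 4 for Mark4 (58.9 CPM) and mouse 5 for Cox7a2 (10.3 CPM), and mouse 6 was lowest for Ulk1 (98.3 CPM).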

How the results depend on the processing

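No paired analysis was possible because the labels give no replicate numbers that tie mice of different groups. Higher and lower calls, 167 and 267 as reported, were 417 and 489 by the Wald test of DESeq2, 314 and 382 by the exact test of edgeR, 584 and 315 in a single fit over 58 mice, 239 and 327 with sex as a covariate, 84 and 147 after thinning to 5471936 counts, 1400 and 1426 unadjusted, 23 and 7 in males, 4 and 14 in females, 9 and 11 without the 4 mice rich in ribosomal RNA, 5 and 7 with Rn45s as a covariate and 12 and 10 without the 5 Ttr-rich mice. The last 3 were chosen after seeing the data. Leaving out 1 mouse gave 57 to 279 higher and 97 to 330 lower calls, fewest without E3 replicate 3 and most without E4 replicate 6. The injury interaction had 3 calls with DESeq2 and 961 unadjusted, the Abca1 interaction 67 and 1536. Of the 62 called named genes, 35 stayed past the threshold whichever mouse was left out and 27 did not. Direction turned in females for ATP8 (0.64), Apoe (-0.03), H2-Aa (-0.10), H2-Ab1 (-0.13), H2-Eb1 (-0.05), ND5 (0.10) and Pcna (-0.09), in males for Ccna2 (-0.07), Slc2a1 (0.01) and Ttr (-1.02), with Rn45s as a covariate for Cnp (-0.03), Macrod2 (0.01), Mag (-0.04), Rn18s (0.02), Rn7sk (0.15) and Slc2a1 (0.01), without the mice rich in ribosomal RNA for Mag (-0.02) and Slc2a1 (0.02), and without the Ttr-rich mice for Ttr (-0.74). The causes were not tested. E4 mouse 7, with 5471936 counts, sets the depth below which low genes are imprecise.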
